A study of Mus musculus with 6 samples.

Results

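The miR-181 family is a group of microRNAs (miRNAs), short RNAs that guide Argonaute proteins to messenger RNAs and lower their translation and stability. Members of a family share the seed, bases 2 to 8 of the mature RNA, which does most of the pairing with a target. A hairpin precursor yields a 5p and a 3p strand; in this family the 5p strand is the one usually kept in Argonaute, and the 3p strand is usually the less abundant one. miR-181 miRNAs are best known from lymphocyte development, and the family is also present in neural and sensory tissue, the inner ear included.

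The family was taken as every row of the count table named for miR-181a, b, c or d (mmu-miR-181a-5p, mmu-miR-181c-5p, mmu-miR-181d-5p and so on, the mouse prefix being left off from here), both arms included, which gave 8 of the 810 rows, 4 of 5p strands and 4 of 3p strands. The counts come from small extracellular vesicles (sEV), membrane particles that cells release, which were collected from the medium of cochlear explants of ICR mice at postnatal day 3. Explants were the sensory epithelium of the inner ear with the spiral ganglion removed, and they were given 50 µM cisplatin, a platinum drug that damages hair cells, for 48 h (Cis-sEV) or an equal volume of PBS (Ctrl-sEV), both in medium with serum from which sEV had been removed by centrifugation. There were 3 libraries in each group, each from the pooled sEV of about 80 explants. The study calls the libraries of a group biological replicates; how the cultures behind them were separated is not given in the sources used here, and p-values measure the spread between these libraries.

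The 4 mature 5p strands are shown because they are the abundant members and because they share one seed. Sequences are from RefSeq on GRCm38.p6, written 5′ to 3′ with the seed in capitals, and all 8 family rows matched RefSeq and carried the same sequence in the deposited table.
miR-181a-5p: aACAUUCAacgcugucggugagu
miR-181b-5p: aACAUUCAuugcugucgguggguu
miR-181c-5p: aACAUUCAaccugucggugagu
miR-181d-5p: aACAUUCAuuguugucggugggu

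The seed ACAUUCA was found in these 4 rows and in no other of the 810 rows. The members differ behind it, and they fall into pairs that do not follow the gene clusters. miR-181a-5p is miR-181c-5p with 1 base more, and miR-181b-5p and miR-181d-5p differ by C12U (the base of miR-181b-5p first, counted from the 5′ end) and by 1 base of length. The capitals below mark those bases.
miR-181a-5p: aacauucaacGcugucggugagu
miR-181c-5p: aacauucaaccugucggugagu
miR-181b-5p: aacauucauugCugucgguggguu
miR-181d-5p: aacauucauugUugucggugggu

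How the authors counted reads that fit 2 rows, or fit a row with a mismatch, is not given in the sources used here, so the split of reads within each of these near-identical pairs carries that uncertainty. Members of different pairs are farther apart, miR-181a-5p and miR-181b-5p differing by A9U, C10U and A21G and by 1 base of length.

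The 3p strands are shown because they tell the hairpins apart where the 5p strands cannot. Capitals again mark the seed.
miR-181a-1-3p: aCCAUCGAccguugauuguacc
miR-181a-2-3p: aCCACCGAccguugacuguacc
miR-181c-3p: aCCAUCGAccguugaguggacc
miR-181d-3p: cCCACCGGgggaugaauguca

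miR-181a-1-3p and miR-181a-2-3p differ by U5C and U16C. The first of these lies in the seed, so the seed of miR-181a-1-3p is that of miR-181c-3p, and these were the 2 rows of 810 with it. The 3p strands of miR-181b are not analysed here.

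The family is encoded by 6 hairpins at 3 places in the genome (GRCm38.p6). Mir181a-1 (chr1:137966455-137966541, plus strand) and Mir181b-1 (chr1:137966639-137966718) lie 97 bases apart in an intron of the noncoding gene Gm4258, on its strand, and both overlap an exon of the lincRNA gene A430106G13Rik. Mir181a-2 (chr2:38852735-38852810, plus strand) and Mir181b-2 (chr2:38853830-38853918) lie 1019 bases apart in an intron of Nr6a1, a nuclear receptor gene on the opposite strand. Mir181c (chr8:84178873-84178961, minus strand) and Mir181d (chr8:84178716-84178787) lie 85 bases apart in an intron of Nanos3, a germ cell gene on the same strand. miR-181a-5p and miR-181b-5p are each made from both the chromosome 1 and the chromosome 2 copies, and their reads cannot be divided between the copies.

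Depth differed between the groups, with 1722359 to 1794175 miRNA reads and 586 to 603 detected miRNAs per Cis-sEV library, and 528952 to 718597 reads and 258 to 311 miRNAs per Ctrl-sEV library. Levels are given as CPM, in which the miRNA reads of every library are brought to one common total, and so say nothing about the amount of RNA per vesicle or the number of vesicles. At 95% confidence a count of 0 allows a level of up to about 3 reads. That level stood for 1.67 to 1.74 CPM in the deeper Cis-sEV libraries, against 4.17 to 5.67 CPM for Ctrl-sEV. The spread among replicates was wider in Ctrl-sEV, where edgeR's biological coefficient of variation was 1.58, than in Cis-sEV, where it was 0.370. The miR-183 cluster, which marks hair cells, was present in every library at a summed 54984 to 81525 CPM.

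The share of miRNA reads on the whole family overlapped between the groups, while the makeup of the family differed. Its rows held 7.29%, 6.83% and 6.33% of the reads after cisplatin (mean 6.82% ± 0.482, SD, n = 3). The Ctrl-sEV values were 6.70%, 5.98% and 6.83% (6.50% ± 0.458). The order of these means turned, to 7.29% in Cis-sEV and 8.07% in Ctrl-sEV, when reads of miR-204-5p, the most abundant miRNA, were left out of the total. Counting error is small beside this spread: the 95% Wilson interval ran from 5.92% to 6.03% for Ctrl-sEV replicate 2 and from 7.25% to 7.33% for Cis-sEV replicate 1. The rows of the miR-181c/d cluster held 2.15% ± 0.167 of all miRNA reads after cisplatin, against 0.626% ± 0.195 in Ctrl-sEV. The miR-181a/b rows held 4.66% ± 0.372 and 5.88% ± 0.372. Neither of these parts overlapped between the groups.

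Set against each other within a library, the clusters need no scaling between libraries. There were 47.3, 42.3 and 49.1 miR-181c/d reads per 100 miR-181a/b reads after cisplatin, while the Ctrl-sEV libraries had 8.30, 9.39 and 14.3. Every Cis-sEV library was above every Ctrl-sEV library, and the means, 46.2 ± 3.55 and 10.6 ± 3.17 (SD, n = 3), stood 4.34-fold apart. This is a summary over members chosen together, so no p is given for it.

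Among the 5p reads, miR-181a-5p remained the main member in each library. Its part was 64.8% ± 1.81 in Cis-sEV and 83.5% ± 4.41 in Ctrl-sEV (SD, n = 3). The part of miR-181c-5p was 21.7% ± 1.52 against 6.07% ± 1.30, and that of miR-181d-5p 10.6% ± 0.710 against 4.04% ± 1.52. miR-181b-5p made up 2.91% ± 0.290 against 6.42% ± 1.89. Each of the 4 parts was without overlap between the groups, but they are parts of one total and so not separate results. Together miR-181c-5p and miR-181d-5p made up 30.5% to 33.7% of the shared-seed reads after cisplatin, against 8.19% to 13.1% in Ctrl-sEV.

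**Figure D1:**
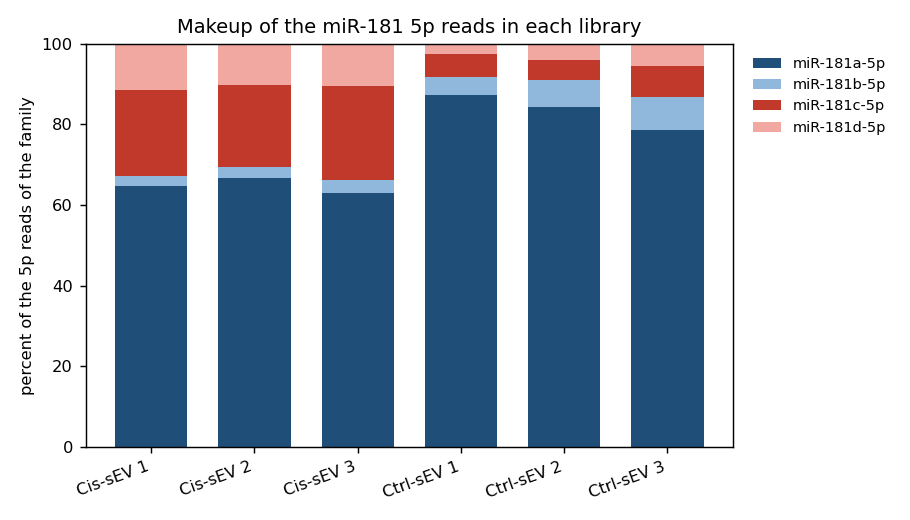
Makeup of the miR-181 5p reads. Each bar is a library and shows the percent of its family 5p reads on miR-181a-5p, miR-181b-5p, miR-181c-5p and miR-181d-5p; the miR-181c-5p and miR-181d-5p parts together reach 30.5% to 33.7% after cisplatin, against 8.19% to 13.1% in Ctrl-sEV.

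Each row was then tested between the groups with edgeR's quasi-likelihood test and called where the adjusted p (Benjamini-Hochberg over all tested miRNAs) did not exceed 0.05 and the log2 fold change reached 1 in either direction. Of 353 miRNAs tested, 30.0% were called, 23.5% as higher and 6.52% as lower in Cis-sEV. The filter on low counts left 7 of the 8 family rows, and 5 of these 7 were called. The 2 higher were miR-181c-5p and miR-181d-5p, and the 3 lower were miR-181b-5p, miR-181a-1-3p and miR-181a-2-3p. Most of the higher calls in the whole table were of scarce miRNAs: 55 of the 97 tested miRNAs under 30 CPM were called higher, against 7 of the 46 over 3000 CPM (15.2%), the band that holds the 4 family 5p rows. In that band 9 were called lower (19.6%), and in the band of 300 to 3000 CPM, which holds both miR-181a 3p rows, 7 were called higher (10.6%) and 10 lower (15.2%).

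miR-181a-5p, the dominant member, was counted at 46153, 44341 and 38904 CPM in Cis-sEV and at 54833, 47145 and 51211 CPM in Ctrl-sEV. All Cis-sEV libraries lay below all Ctrl-sEV libraries, by a small margin, and with 69800 reads or more in Cis-sEV and 27088 or more in Ctrl-sEV counting error was not the limit. The log2 fold change was -0.61 ± 0.19 (SE), with an edgeR adjusted p of 0.0481, and in this fit the row missed the call on the fold. Without TMM factors the mean CPM stood 1.18-fold apart. The adjusted p was not firm. Over 15 alternative fits it fell on both sides of 0.05, from 0.00756 (edgeR, no filter on low counts) to 0.404 (DESeq2 Wald test). miR-181a-5p stood in rank 5 by mean CPM in Cis-sEV and in rank 4 in Ctrl-sEV. In Cis-sEV the means of let-7f-5p above it (45152 ± 1192 CPM) and miR-26a-5p below it (40221 ± 1334) lay within 1 SD of its own 43132 ± 3773, and let-7a-5p (51203 ± 1378) and miR-183-5p (38991 ± 3325) came next on either side. In Ctrl-sEV its 51063 ± 3846 CPM lay between let-7a-5p (66916 ± 9603) and miR-183-5p (42587 ± 524), with let-7c-5p (96909 ± 9586) and let-7f-5p (38070 ± 5409) farther out.

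miR-181b-5p, which shares both precursor clusters with miR-181a-5p, was lower in Cis-sEV. It was counted at 1899, 1902 and 1993 CPM in Cis-sEV and at 2810, 3639 and 5373 CPM in Ctrl-sEV. The Cis-sEV libraries lay close together and below every Ctrl-sEV library, among which replicate 3 was the highest. It fell by 1.36 on the log2 scale (SE 0.22, edgeR adjusted p = 0.00551), a 2.57-fold difference with TMM scaling. The mean CPM stood 2.04-fold apart. The DESeq2 Wald test gave -1.44 and did not call it (DESeq2 adjusted p = 0.0596). Its rank by mean CPM was 59 in Cis-sEV and 35 in Ctrl-sEV.

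miR-181c-5p, from the chromosome 8 cluster, was the second member by level in Cis-sEV and rose more than any other tested member of the family. It was counted at 15217, 13565 and 14412 CPM in Cis-sEV and at 3566, 2801 and 4896 CPM in Ctrl-sEV. The groups were far apart, the lowest Cis-sEV library lying well above the highest Ctrl-sEV library. The log2 fold change was 1.58 ± 0.25 (SE), a 2.98-fold rise with TMM scaling, with an edgeR adjusted p of 0.0053. The mean CPM stood 3.83-fold apart. With the DESeq2 Wald test the call was lost at nearly the same size (1.51, DESeq2 adjusted p = 0.0523). Its rank moved from 36 in Ctrl-sEV to 23 in Cis-sEV.

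miR-181d-5p, its neighbour in the same cluster, rose as well, but the call was less firm. It was counted at 8179, 6719 and 6409 CPM in Cis-sEV and at 1573, 2263 and 3615 CPM in Ctrl-sEV, again without overlap and with Ctrl-sEV replicate 3 the highest control. The log2 fold change was 1.19 ± 0.28 (SE), a 2.28-fold rise with TMM scaling, with an edgeR adjusted p of 0.0164. The mean CPM stood 2.86-fold apart. The call was lost when Cis-sEV replicate 1 (log2 fold change 0.93, edgeR adjusted p = 0.0869), Cis-sEV replicate 2 (1.13, 0.0570), Ctrl-sEV replicate 1 (0.94, 0.0674) or Ctrl-sEV replicate 2 (1.11, 0.0860) was left out, and under 5 other settings; the direction was the same in all of these.

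**Figure D2:**
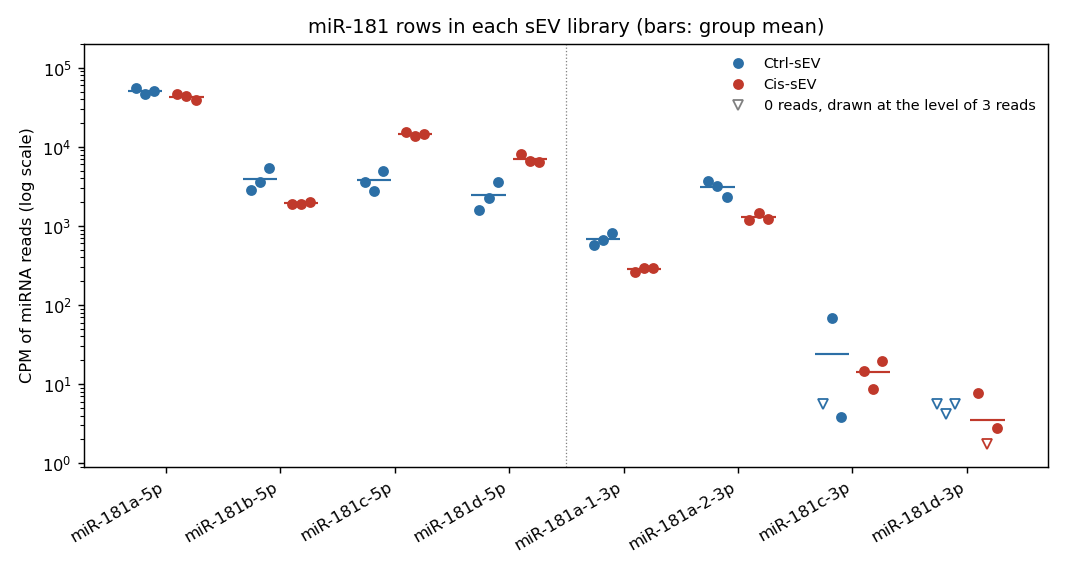
Levels of the 8 miR-181 rows. Points are the CPM of single libraries on a log axis, bars are group means over 3 libraries, and open triangles are libraries with 0 reads drawn at the level of 3 reads; miR-181c-5p and miR-181d-5p have all Cis-sEV points above the Ctrl-sEV points, and miR-181a-5p, miR-181b-5p and both miR-181a 3p rows have them below.

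With TMM scaling, 37.7% of all tested miRNAs had every Cis-sEV library above every Ctrl-sEV library and 12.5% had every one below. In the family 2 rows lay above, miR-181c-5p and miR-181d-5p. The 4 rows below were miR-181a-5p, miR-181b-5p, miR-181a-1-3p and miR-181a-2-3p. The median log2 fold change over all 353 tested miRNAs was 0.44 (quartiles -0.74 and 2.36). Among these, miR-181c-5p stood at percentile 69.4 and miR-181d-5p at 64.6, whereas miR-181a-5p stood at 25.8, miR-181b-5p at 14.4, miR-181a-1-3p at 11.3 and miR-181a-2-3p at 11. The scarce miRNAs under 30 CPM weigh on these places, with a median of 5.29. In the band over 3000 CPM, which holds the family 5p rows, the median was 0.17 (quartiles -0.59 and 0.81). At 300 to 3000 CPM, the band of the miR-181a 3p rows, it was 0.34 (-0.36 and 0.76).

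**Figure D3:**
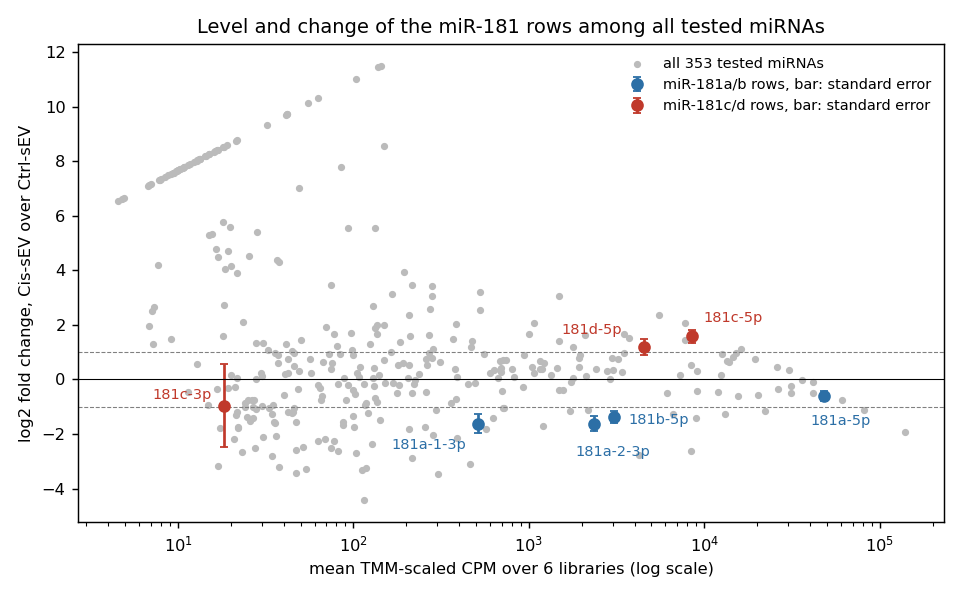
Level and change of all 353 tested miRNAs. The x axis is mean TMM-scaled CPM over 6 libraries (log axis), the y axis the log2 fold change of Cis-sEV over Ctrl-sEV, dashed lines mark a log2 fold change of 1 in either direction and bars are standard errors; the miR-181a/b rows lie between -0.61 and -1.63 and the c/d 5p rows at 1.19 and 1.58, while miR-181c-3p has a wide bar.

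The levels put the 5p members in a different order in each group. In Cis-sEV the order was miR-181a-5p, miR-181c-5p (14398 ± 826 CPM), miR-181d-5p (7102 ± 945) and miR-181b-5p (1931 ± 53.3), with no overlap between neighbours. In Ctrl-sEV miR-181a-5p was followed by miR-181b-5p (3941 ± 1308 CPM), miR-181c-5p (3755 ± 1060) and miR-181d-5p (2483 ± 1039), whose ranges over libraries overlapped. Within each Ctrl-sEV library miR-181d-5p was the lowest of the 5p rows, with 44.1, 80.8 and 73.8 reads per 100 of miR-181c-5p. The order of miR-181b-5p and miR-181c-5p changed between Ctrl-sEV libraries, so they cannot be ordered there. In the near-identical pair there were 431, 353 and 322 reads of miR-181d-5p per 100 of miR-181b-5p in Cis-sEV, and 56.0, 62.2 and 67.3 in Ctrl-sEV.

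Single ratios within a library were tested by a two-sided exact permutation test of the mean log2 ratio. With 3 libraries against 3 its smallest possible p is 0.1, so none of the 7 ratios tested could pass 0.05. miR-181c-5p stood at 33.0%, 30.6% and 37.0% of miR-181a-5p reads in Cis-sEV and at 6.50%, 5.94% and 9.56% in Ctrl-sEV. The difference in the log2 ratio was 2.22, or 4.66-fold, the largest of the 7. miR-181d-5p stood at 17.7%, 15.2% and 16.5% against 2.87%, 4.80% and 7.06%, a difference of 1.84 (3.57-fold). miR-181b-5p, in contrast, stood at 4.11%, 4.29% and 5.12% against 5.13%, 7.72% and 10.5%, a difference of -0.73, with the highest Cis-sEV library only just under the lowest Ctrl-sEV library. Each of these ratios had groups without overlap and an exact permutation p of 0.1, the smallest possible (0.14 after Benjamini-Hochberg adjustment over 7 ratios).

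Both 3p strands of miR-181a were lower in Cis-sEV. miR-181a-2-3p, from the chromosome 2 hairpin, was counted at 1178, 1456 and 1241 CPM in Cis-sEV and at 3681, 3224 and 2339 CPM in Ctrl-sEV, and it fell by 1.63 on the log2 scale (SE 0.27, edgeR adjusted p = 0.00551). The groups did not overlap, and Ctrl-sEV replicate 3 was the lowest control. miR-181a-1-3p, from chromosome 1, was counted at 262, 296 and 295 CPM in Cis-sEV and at 582, 655 and 822 CPM in Ctrl-sEV, and it fell by 1.62 (SE 0.34, edgeR adjusted p = 0.0115). Here Ctrl-sEV replicate 3 was the highest control, the reverse of its place for miR-181a-2-3p. The call of miR-181a-1-3p was lost under 4 of the 15 alternatives, among them the fits without Cis-sEV replicate 1 (edgeR adjusted p = 0.0642) and without Cis-sEV replicate 3 (0.0584), at log2 fold changes of -1.71 and -1.49, and the fit with no filter on low counts (-1.69, edgeR adjusted p = 0.0688).

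Against the reads of miR-181a-5p in the same library, miR-181a-2-3p stood at 2.55%, 3.28% and 3.19% in Cis-sEV and at 6.71%, 6.84% and 4.57% in Ctrl-sEV. miR-181a-1-3p stood at 0.568%, 0.666% and 0.759% against 1.06%, 1.39% and 1.61%. Both ratios were about the same distance apart between the groups, with log2 differences of -0.99 and -1.01 (exact permutation p = 0.1 each, the smallest possible, 0.14 adjusted over 7 ratios), and neither overlapped. The chromosome 1 strand made up 18.1% ± 1.18 of the miR-181a 3p reads in Cis-sEV and 18.9% ± 6.41 in Ctrl-sEV (SD, n = 3), where the libraries ran from 13.6% (95% Wilson interval 12.3% to 15.1%) to 26.0% (23.97% to 28.17%). The groups overlapped in this share.

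**Figure D4:**
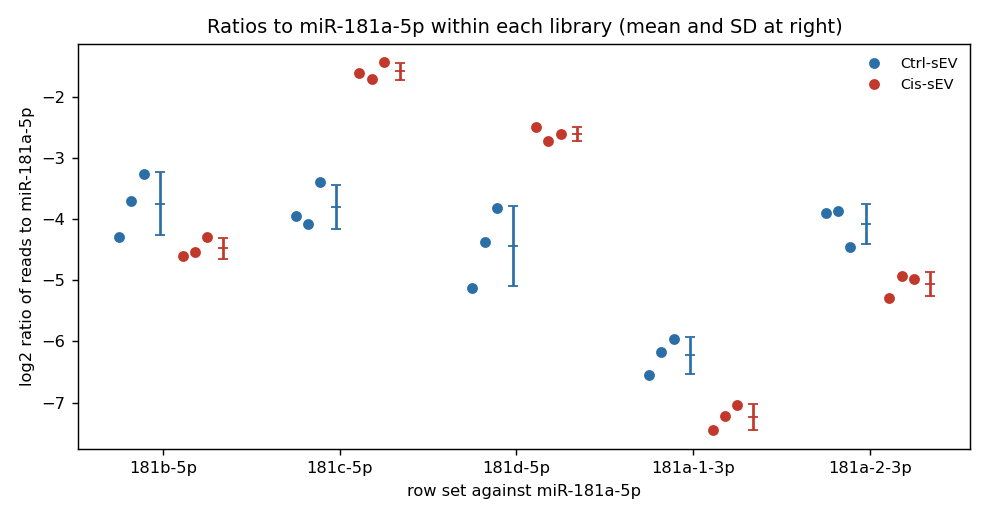
Ratios within each library. The y axis is the log2 ratio of reads to miR-181a-5p (pseudocount 1), points are single libraries and the mark at the right of each set is the mean with its SD over 3 libraries; miR-181c-5p and miR-181d-5p are higher in all Cis-sEV libraries, by 2.22 and 1.84 in the mean, and miR-181b-5p, miR-181a-1-3p and miR-181a-2-3p are lower.

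The 3p strands of the c/d cluster were close to the limit of detection. miR-181c-3p had 26, 15 and 35 reads in Cis-sEV and 0, 49 and 2 reads in Ctrl-sEV. The log2 fold change was -0.96 ± 1.52 (SE, edgeR adjusted p = 0.732), a value set by Ctrl-sEV replicate 2, without which it was 2.51 (not called). miR-181d-3p had 14, 0 and 5 reads in Cis-sEV and 0 in every Ctrl-sEV library, too few for the filter. Without the filter edgeR gave an adjusted p of 0.368, and it was not called by DESeq2 either. No difference in either row was detectable at this depth, and their ratios to the 5p strands overlapped between the groups (exact permutation p = 0.8 and 0.4, or 0.8 and 0.467 adjusted over 7 ratios). All 3p rows together were 2.35% ± 0.302 of the family reads in Cis-sEV and 5.87% ± 1.07 in Ctrl-sEV. Nearly all of these 3p reads were of miR-181a. The total they are set against includes miR-181c-5p and miR-181d-5p, whose part was larger in Cis-sEV.

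The nearest other miRNA cluster to Mir181c is Mir23a, Mir27a and Mir24-2, which begins 29556 bases away (Mir23a, chr8:84208518-84208592) on the opposite strand and gives miRNAs abundant in many tissues. Of its 6 rows 5 were tested, and edgeR called 0 in either direction, with 3 at an unadjusted p under 0.05; DESeq2 and limma-voom called 0 as well, with 0 and 2 under that limit. miR-23a-3p was at 18985 ± 814 CPM after cisplatin and 9548 ± 446 in Ctrl-sEV, with a log2 fold change of 0.64 ± 0.13 (SE, edgeR adjusted p = 0.0102), under the limit on the fold. miR-27a-3p had 0.78 ± 0.29 (edgeR adjusted p = 0.0841), and miR-24-3p, which a second locus also encodes, 0.97 ± 0.34 (0.0661). miR-24-2-5p had 1.67 ± 2.11 (0.669), miR-27a-5p -0.34 ± 2.18 (0.936), and miR-23a-5p 2 reads in all. The 3 abundant strands thus had fold changes above 0 and below those of miR-181c-5p and miR-181d-5p; the difference between the clusters was not tested.

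The miRNAs whose levels followed the family's were listed by Pearson's r of log2(TMM-scaled CPM + 1) over the 6 libraries, among 175 miRNAs of at least 100 CPM. The 6 points fall into 2 groups, so r mostly follows the gap between them, and it is given as a description with no p. Closest to miR-181a-5p were let-7d-5p (0.971), miR-99b-5p (0.955) and a miRNA that the authors predicted from the reads (0.935). Closest to miR-181c-5p were miR-218-5p (0.999), miR-143-3p (0.989) and miR-34a-5p (0.987). Within the family, miR-181c-5p went with miR-181d-5p (0.925) and against miR-181b-5p (-0.821), while miR-181a-5p went with miR-181a-2-3p (0.899), miR-181a-1-3p (0.839) and miR-181b-5p (0.767).

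Markers of other cells also moved between the groups, and their part in the miR-181 values was not tested. Over all tested miRNAs, 23.5% were called higher and 6.52% lower. The endothelial pair miR-126a-3p and miR-126a-5p summed to 6915 to 9947 CPM after cisplatin and 14595 to 18602 CPM with PBS, a sum set almost wholly by miR-126a-3p, which was called lower (log2 fold change -1.28). miR-126a-5p, at 52.5, 29.6 and 46.8 CPM against 0, 0 and 5.67, had all Cis-sEV libraries above and a log2 fold change of 4.17, and was not called (edgeR adjusted p = 0.0759). The erythrocyte list summed to 1153 to 1306 and 1509 to 3330 CPM, with 2 of 3 called lower. The neuronal list summed to 2000 to 2178 and 939 to 1450 CPM, with 1 of 3 higher. The 1 called was its defining miR-124-3p, with 25 to 109 reads per Cis-sEV library and 0 reads in all Ctrl-sEV libraries. Most of the sum came from miR-9-5p, which was not called (log2 fold change 0.15, edgeR adjusted p = 0.705). The groups did not overlap in its unscaled CPM, but they did with TMM scaling. miR-128-3p was not called either (1.64, edgeR adjusted p = 0.51). The muscle list (2 of 3 in the table) summed to 47.4 to 62.4 and 0 to 2.78 CPM, both called higher. Both of these and miR-124-3p lay in the band under 30 CPM, where 55 of 97 tested miRNAs (56.7%) were called higher. Of the mesenchymal list, at 5166 to 8914 and 2131 to 4394 CPM, and of the leukocyte list (3 of 5 in the table), at 430 to 674 and 399 to 561 CPM, 0 were called by edgeR, DESeq2 or limma-voom. At an unadjusted p under 0.05 edgeR had 1 mesenchymal and 0 leukocyte miRNAs, limma-voom the same counts and DESeq2 0 of both. With group weights limma-voom also called 0, but it had 2 mesenchymal and 1 leukocyte miRNAs under that limit, all higher. The spread of the mesenchymal sums came mostly from miR-199a-3p, at 320, 3783 and 192 CPM in Cis-sEV and 1075, 1.39 and 1477 CPM in Ctrl-sEV. In the hair cell list 1 of 3, miR-96-5p, was called higher, at 23793, 11062 and 7279 CPM in Cis-sEV. The most abundant of the list, miR-183-5p, had all Cis-sEV libraries below all Ctrl-sEV libraries and was not called (log2 fold change -0.49, edgeR adjusted p = 0.0419). miR-182-5p overlapped between the groups (0.18, edgeR adjusted p = 0.782).

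**Figure D5:**
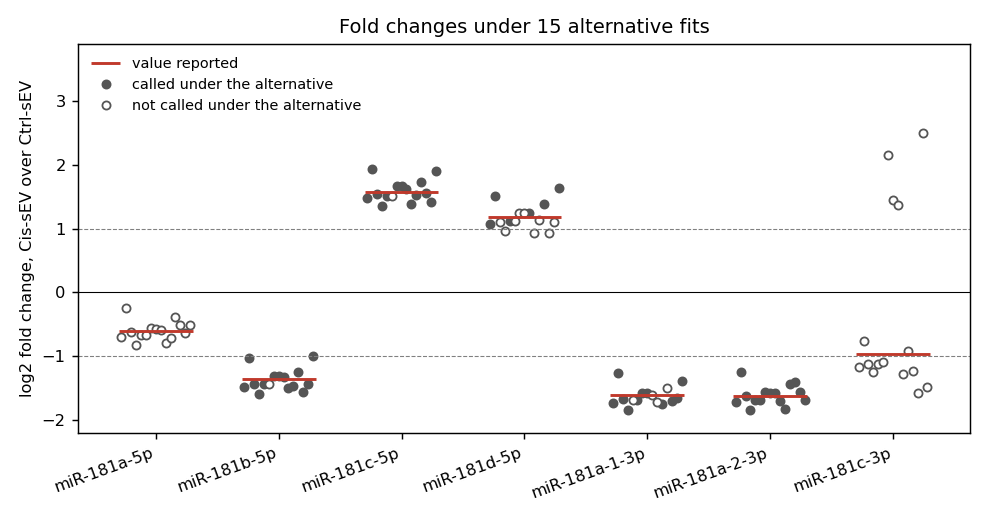
Fold changes of the 7 tested rows under 15 alternative fits. Points are log2 fold changes of Cis-sEV over Ctrl-sEV, filled where the row was called and open where it was not, the red line is the value reported and dashed lines mark a log2 fold change of 1 in either direction; miR-181a-2-3p was called in all 15, miR-181b-5p and miR-181c-5p in 14, miR-181a-1-3p in 11 and miR-181d-5p in 6.

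Across other scalings, tests and left-out libraries, miR-181a-5p had a negative log2 fold change each time, from -0.83 to -0.24, and was never called. miR-181c-5p ranged from 1.35 to 1.94 and miR-181d-5p from 0.93 to 1.63. miR-181b-5p ranged from -1.59 to -1.003, miR-181a-1-3p from -1.84 to -1.27 and miR-181a-2-3p from -1.84 to -1.25. The opposite signs of the c/d 5p rows and the tested a/b rows were thus present under each of the 15 settings.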

How the data were processed

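The data are small RNA libraries, 3 of Cis-sEV and 3 of Ctrl-sEV. The authors selected RNA of 18 to 30 nt, sequenced it on the DNBSEQ platform, aligned reads to GRCm38.p6 with Bowtie2 (version not given in the sources used here), annotated them with AASRA and CMSearch, and deposited the raw count of reads on each of 810 mature miRNAs, without normalization. Group mean columns in the deposited table are the authors' values and were not used. No column of single libraries was left out (0).

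Counts were fitted with edgeR 4.0.16 in R 4.3.3 (quasi-likelihood, TMM factors, filterByExpr with a minimum of 10 reads in a library and 15 in all), and the SE is the absolute log2 fold change over the square root of F. Because this test uses the replicates, it replaced the MA-plot test of the study; the study's limits were kept. Alternatives used DESeq2 1.42.0, limma 3.58.1, other scalings, no filter and each library left out in turn. The edgeR fit was tested on simulated data. Shares, ratios and permutation tests used Python 3.11.15, numpy 2.4.6, pandas 2.3.3 and scipy 1.17.1, and plots matplotlib 3.10.9. Sequences and loci are from RefSeq and GENCODE M21.

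The miRNAs named are the family rows, any row with the 5p seed, the Mir23a cluster, the 3 miRNAs most like miR-181a-5p and like the second most abundant member, the 2 neighbours in rank on each side, and marker miRNAs. The members and lists were chosen with earlier results of these data known. Depth was 528952 to 1794175 miRNA reads. Reads are not independent molecules, so limits from 3 reads cover counting error only. Pairs of libraries of a group differed beyond sampling noise (chi-square per degree of freedom 51.2 to 91.5), so none was counted as a duplicate.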

Additional observations from a re-analysis of the deposited data

How the results depend on the processing

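miR-181a-2-3p kept its call under all 15 alternatives. With the DESeq2 Wald test miR-181b-5p (-1.44), miR-181c-5p (1.51) and miR-181d-5p (1.11) lost theirs (DESeq2 adjusted p = 0.0596, 0.0523 and 0.227), leaving 0 family rows called higher (1 at an unadjusted p under 0.05). miR-181d-5p was also not called with TMMwsp factors (1.11), upper-quartile factors (0.96), limma-voom (1.25) or limma-voom with group weights (1.24), each of which left 1 row called higher. The 6 fits that left out a library gave miR-181d-5p 0.93 to 1.63, miR-181a-1-3p -1.76 to -1.39, 1 to 2 family rows called higher and 2 to 3 lower. miR-181a-1-3p lost its call with no filter on low counts (-1.69, edgeR adjusted p = 0.0688). miR-181c-3p turned positive with limma-voom (2.16) and with group weights (1.44), and ran from -1.57 to 2.51 with a library left out. The cause of these changes was not tested.

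Counts over all miRNAs moved more: 30 were called higher and 13 lower with limma-voom, 11 lower with total miRNA reads as the scale, 14 lower with no filter, and 40 to 144 higher and 11 to 30 lower with a library left out (the fit lacking Cis-sEV replicate 1 called 40 higher, that lacking Cis-sEV replicate 2 called 44, and that lacking Ctrl-sEV replicate 3 called 144). The median log2 fold change of all tested miRNAs was 0.44 with TMM, 0.79 with total reads and 0.22 with upper-quartile factors, so fold changes are relative to the scaling, whereas ratios within a library are not.

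Whether the replicate numbers shared by the groups pair the libraries is not given in the sources used here. Deviations of same-numbered libraries correlated at -0.05, -0.18 and -0.01, and those of differently numbered ones at -0.12 to 0.16. With 3 libraries in each group these values cannot decide whether cultures were paired. With the replicate block, 13 miRNAs were called higher and 11 lower, of which 2 and 2 were family rows. miR-181a-1-3p lost its call with the block (-1.61, edgeR adjusted p = 0.161), and miR-181c-3p was at 1.37.

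Left-out libraries moved the log2 ratio of miR-181c-3p to its 5p strand from -2.45 to 0.34 and that of miR-181d-3p from -1.77 to 0.015, both being near the limit of counting. The family share was 8.07% in Ctrl-sEV and 7.29% in Cis-sEV, the reverse of the order reported, when miR-204-5p, the most abundant miRNA, was left out of the denominator.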
